A study of Homo sapiens with 4 samples.

Results

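VCP is a hexameric AAA ATPase that pulls ubiquitinated proteins out of membranes, complexes and chromatin, often on their way to the proteasome. It works through cofactors: the UFD1-NPLOC4 dimer binds ubiquitin chains, proteins with a UBX domain dock on VCP and bring it to particular substrates or membranes, and VCF1 is a nuclear cofactor that promotes the entry of VCP into the nucleus. In hepatocytes and hepatoma cells, which secrete large amounts of protein, VCP is best known for extracting misfolded proteins from the endoplasmic reticulum, a route called ER-associated degradation (ERAD). The genes described here are VCF1, VCP, UFD1, NPLOC4, NSFL1C, FAF1, FAF2, UBXN1, UBXN4 and UBXN7, 10 of the 22395 genes named on the arrays. They were taken by gene symbol, and each was read by 1 probe set, so all 10 probe sets are given. VCF1 was picked because its signal was higher in the STYK1 arrays, so its difference is a description with no test. The other 9 were taken for their known function.

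The cells were Huh7, an established human hepatocellular carcinoma line, transfected with the plasmid pcFLAG-hSTYK1, which carries human STYK1, or with the plasmid pcFLAG. STYK1 is a receptor-like kinase also called NOK, and the comparison asks which transcripts differ when it is overexpressed. Total RNA was read on whole-transcript arrays, with 2 pcFLAG-hSTYK1 arrays and 2 pcFLAG arrays and 53617 probe sets on each. The labels give no time after transfection and do not tell separate cultures from repeat preparations, so p-values cover no more than the spread among these 4 samples, part or all of which may be technical.

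STYK1 itself read 7.40 and 7.86 log2 units in the pcFLAG-hSTYK1 arrays, against 0.26 and 0.61 in the pcFLAG arrays. The pcFLAG values lay under the floor, set on each array at the 95th percentile of the signals of 462 olfactory receptor probe sets, genes with no known role in the liver (0.75 to 0.77). STYK1 was therefore at least 117-fold higher in the pcFLAG-hSTYK1 arrays (limma, adjusted p = 0.0373). No adjusted p stayed under 0.05 when any 1 array was left out (0.347 to 0.724). In all, 1 of 53617 probe sets passed at an adjusted p under 0.05, a share of 0.00187%, and that one was STYK1. At an unadjusted p under 0.05 the share was 4.64%. The groups did not overlap, in either direction, at 32.8% of probe sets. Of the hepatocyte and hepatoma markers 8 of 9 were measured, and all 8 lay above the floor on all 4 arrays, with a median signal of 9.35 to 9.41. None of the 3 endothelial and 4 fibroblast markers measured did so, and among 5 immune markers LYZ and CD14 did.

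VCF1 was the member whose signal differed most between the groups. It read 2.38 and 2.70 log2 units in the pcFLAG-hSTYK1 arrays, against 1.63 and 1.74 in the pcFLAG arrays. Both pcFLAG-hSTYK1 arrays lay above both pcFLAG arrays, and all 4 values lay above the floor. The mean was 2.54 ± 0.22 in the pcFLAG-hSTYK1 arrays and 1.69 ± 0.08 in the pcFLAG arrays (SD, n = 2 each). The log2 difference was 0.85 (standard error 0.14), or 1.81-fold. The distance between the groups, measured from the lower pcFLAG-hSTYK1 array to the higher pcFLAG array, was 0.64. The replicates lay 0.31 apart in the pcFLAG-hSTYK1 arrays and 0.11 apart in the pcFLAG arrays. Of the 22395 named genes, 6 had a larger positive difference: STYK1, MCTS2, and 4 that are small RNAs or a small RNA pseudogene (SNORD53, RNY4P18, MIR1299 and MIR4525); they are named after their values were seen. A further 289 probe sets without exactly 1 gene symbol also had a larger positive difference. Leaving out 1 array at a time gave differences of 0.70 to 1.01. In RNA from whole cultures, more cells with the transcript and more transcript per cell cannot be told apart, and the labels give no share of transfected cells.

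**Figure D1:**
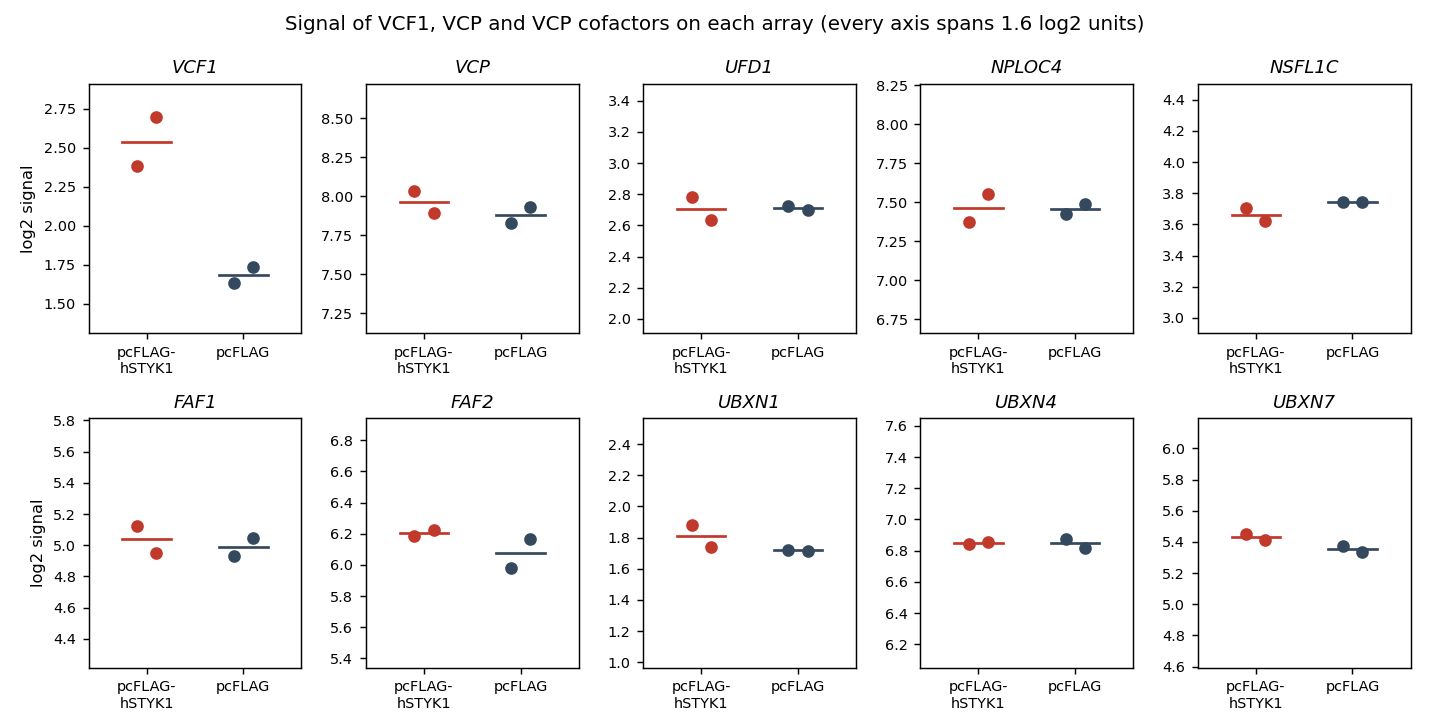
Log2 signal of VCF1, VCP and 8 VCP cofactors, with 1 point per array and a line at each group mean; pcFLAG-hSTYK1 arrays are on the left of each panel and pcFLAG arrays on the right. Every axis spans the same range, centred on the gene, so distances compare between panels but heights do not; VCF1 reads 2.38 and 2.70 against 1.63 and 1.74, and the points of the other genes lie close together.

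VCF1 lies on chromosome 17 beside MTNAP1, a gene transcribed from the opposite strand. In the RefSeq table for the assembly GRCh38.p14 the first start of VCF1 and the nearest start of MTNAP1 are separated by 38 bases, and a further MTNAP1 start lies 267 bases away. The 250 bases before the first VCF1 start, at chr17:73232395-73232644 on the minus strand, are shown because VCF1 and MTNAP1 start here on opposite strands, so that the values of both genes can be set beside the stretch they share. They are printed 5′ to 3′ on the strand of VCF1, and the capitals mark the bases between the 2 nearest starts.
VCF1: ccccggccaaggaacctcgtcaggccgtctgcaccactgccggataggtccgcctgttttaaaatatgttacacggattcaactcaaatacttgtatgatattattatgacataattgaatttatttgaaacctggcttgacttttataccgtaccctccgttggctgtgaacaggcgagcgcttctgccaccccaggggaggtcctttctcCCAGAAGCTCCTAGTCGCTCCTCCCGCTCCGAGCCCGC
G and C make up 51.6% of these bases. The TATA box letters TATAAA, searched on both strands, matched once, and 10.8% of 34943 such windows in the table hold a match. That match reads TATAAA on the strand opposite to VCF1 and lies outside the capitals. The GC box GGGCGG had no match in this window and has one in 42.5% of all windows. The CCAAT box had none either, against 32% of windows. The E-box letters CACGTG were also not found, and 6.32% of windows hold them. The same holds for the element TGATGNAA, bound by ATF4 and CEBP proteins, which 3.15% of windows hold. RefSeq lists a second VCF1 start further downstream, and 1 probe set cannot tell the starts apart. The deposited table names no genome build, so these coordinates are those of the RefSeq table.

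MTNAP1 read 1.84 and 1.94 log2 units in the pcFLAG-hSTYK1 arrays, against 1.84 and 1.88 in the pcFLAG arrays. Its groups overlapped, with a difference of 0.03 and a 95% interval that reaches up to 0.27 (limma, adjusted p = 0.997). On the other side of VCF1, COG1, a subunit of the Golgi tethering complex COG, also overlapped, at 2.96 and 2.57 in the pcFLAG-hSTYK1 arrays against 2.77 and 3.001 in the pcFLAG arrays. Of the 6 protein-coding genes nearest to VCF1, 3 on each side, none passed (limma, adjusted p of 0.979 to 0.999). None of the 6 had an unadjusted p under 0.05, against 4.64% of all probe sets. The somatostatin receptor gene SSTR2 differed by 0.16 and CDC42EP4, which encodes a CDC42 effector, by −0.27. Both were without overlap, as are 32.8% of all probe sets. SSTR2 lay close to the floor on all 4 arrays. These neighbours were chosen by position alone, after the value of VCF1 was known.

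**Figure D2:**
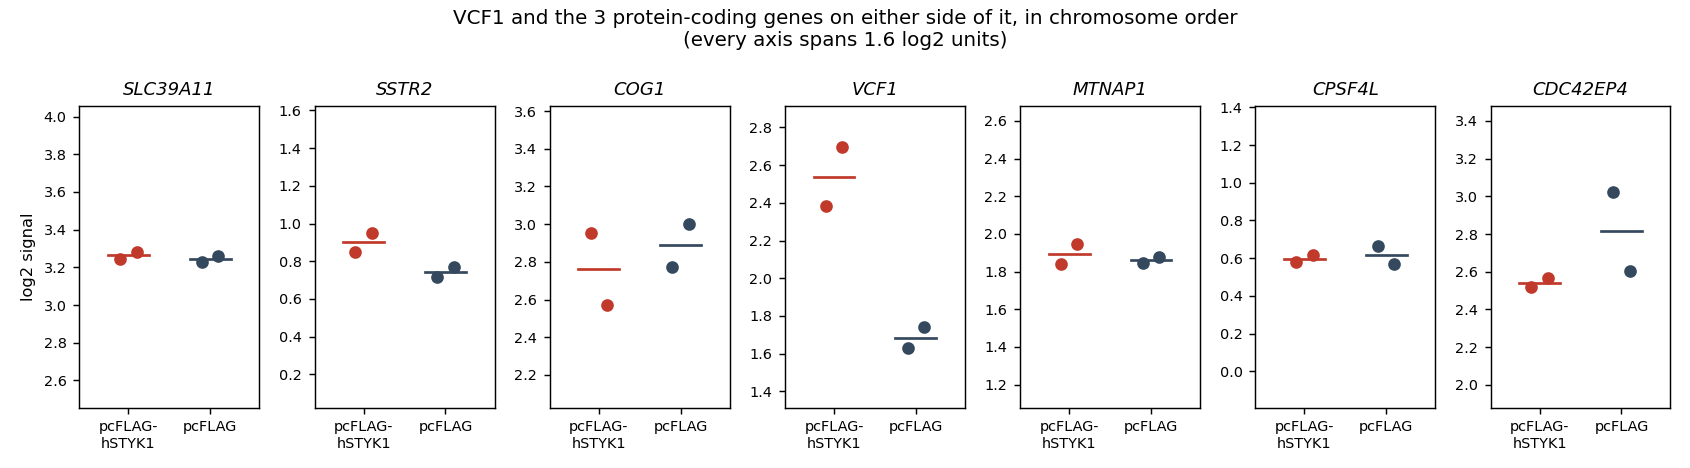
Log2 signal of VCF1 and the 3 protein-coding genes on either side, in chromosome order, with 1 point per array and a line at each group mean; pcFLAG-hSTYK1 arrays are on the left of each panel. VCF1 differs by 0.85, while the adjoining COG1 and MTNAP1 differ by −0.12 and 0.03 with overlapping groups.

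VCP, the ATPase itself, read 8.04 and 7.89 log2 units in the pcFLAG-hSTYK1 arrays, against 7.83 and 7.93 in the pcFLAG arrays. The groups overlapped, and the difference was 0.08 (standard error 0.10; limma, adjusted p = 0.987). It was 0.15 without pcFLAG-hSTYK1 replicate 2 and 0.009 without pcFLAG-hSTYK1 replicate 1. The 95% interval ran from −0.18 to 0.35 and covers no more than the spread among these 4 arrays. VCF1 was chosen for its rise, so its difference of 0.85 is not set against that interval.

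The ubiquitin-binding dimer showed differences near 0. UFD1, its smaller partner, read 2.78 and 2.63 in the pcFLAG-hSTYK1 arrays, against 2.72 and 2.70 in the pcFLAG arrays. NPLOC4, the larger partner, which contacts the ubiquitin chain, read 7.37 and 7.55 in the pcFLAG-hSTYK1 arrays, against 7.43 and 7.49 in the pcFLAG arrays. For both genes the pcFLAG values lay inside the range of the pcFLAG-hSTYK1 values. The differences were −0.00325 for UFD1 and 0.0034 for NPLOC4, where the standard error was 0.10 (adjusted p = 1.00 for each by limma). Signals of different probe sets are not on a common scale, so no order between genes is read.

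Among cofactors bound to membranes, FAF2 gave the largest difference. FAF2, which sits in the membrane of the endoplasmic reticulum and of lipid droplets and recruits VCP there, read 6.19 and 6.22 in the pcFLAG-hSTYK1 arrays, against 5.98 and 6.17 in the pcFLAG arrays. Both pcFLAG-hSTYK1 arrays were higher, but only 0.02 separated the nearest arrays of the groups, and the pcFLAG replicates lay 0.18 apart. The difference was 0.13 (standard error 0.10; limma, adjusted p = 0.98). UBXN4, an ER membrane protein that promotes ERAD, read 6.85 and 6.86 in the pcFLAG-hSTYK1 arrays, against 6.88 and 6.82 in the pcFLAG arrays. Its groups overlapped, and the difference was 0.0049 (standard error 0.09; limma, adjusted p = 1.00).

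Of the soluble UBX cofactors, 3 had groups that did not overlap, each by a narrow margin, where 32.8% of all probe sets do not overlap in either direction. NSFL1C, which acts with VCP in the reassembly of Golgi membranes, read 3.71 and 3.62 in the pcFLAG-hSTYK1 arrays, against 3.74 and 3.74 in the pcFLAG arrays. It was the only member with both pcFLAG-hSTYK1 arrays below both pcFLAG arrays, where 15.4% of all probe sets lie that way, and the difference was −0.08 (standard error 0.09; limma, adjusted p = 0.985). UBXN7, which links VCP to cullin-RING ubiquitin ligases, read 5.45 and 5.41 in the pcFLAG-hSTYK1 arrays, against 5.38 and 5.33 in the pcFLAG arrays. UBXN1, a UBX protein that also binds ubiquitin, read 1.88 and 1.74 in the pcFLAG-hSTYK1 arrays, against 1.72 and 1.72 in the pcFLAG arrays. Their differences were 0.08 for UBXN7 and 0.09 for UBXN1 (limma, adjusted p = 0.986 and 0.984), and gaps of 0.03 and 0.02 separated the groups. FAF1, a FAS-associated protein that binds ubiquitin and VCP, overlapped, at 5.12 and 4.95 in the pcFLAG-hSTYK1 arrays against 4.93 and 5.05 in the pcFLAG arrays, a difference of 0.05 (limma, adjusted p = 0.996).

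**Figure D3:**
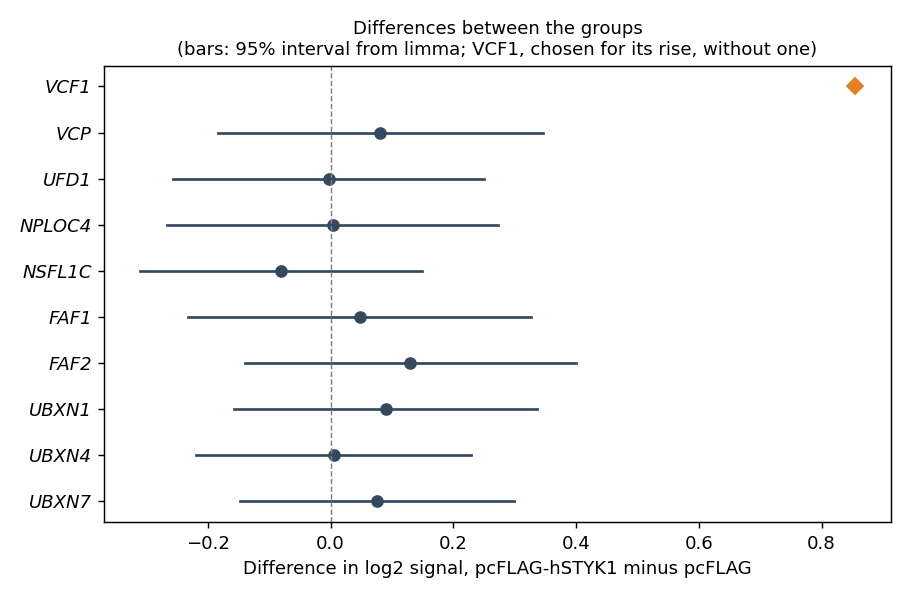
Difference in log2 signal, pcFLAG-hSTYK1 minus pcFLAG, for each gene, with 95% intervals from limma for the 9 genes taken for their function; VCF1 is shown as a point because it was chosen for its difference. All 9 intervals include 0, the highest upper end being 0.40 for FAF2 and the lowest lower end −0.31 for NSFL1C.

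Counted together, 0 of the 9 members other than VCF1 passed (limma, adjusted p of 0.98 to 1.00), where 0.00187% of all probe sets did. An unadjusted p under 0.05 was found for 0 of the 9, against 4.64% of all probe sets. Their 95% intervals all ended below 0.41, the upper end for FAF2 being the highest at 0.40. By sign 7 were higher and 2 lower, which became 6 and 3 with each array centred on its median and 5 and 4 after quantile normalization, where NPLOC4 and UBXN4 turned. Their median difference was 0.05, against 0.0056 over all probe sets. The groups did not overlap for 4 of the 9, 3 of them higher, beside a share of 32.8% of all probe sets. The differences of the 9 had an SD of 0.06, against 0.17 over the 9622 named genes above the floor on all 4 arrays. The 9622 include small RNAs such as MIR1299 and were not matched to the 9 for signal or transcript type. These SDs therefore do not show that the 9 are steadier than like genes. The largest gap between replicates among the 9 was 0.18, in FAF2. On single arrays their mean deviation from each gene's own mean was 0.05 and −0.01 in pcFLAG-hSTYK1 replicates 1 and 2, against −0.04 and −0.0008 in pcFLAG replicates 1 and 2.

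Other genes of the VCP system were read from 7 lists, with 50 of 60 genes measured by a probe set with exactly 1 symbol. None of the 50 passed (limma, 0 higher and 0 lower), where 0.00187% of all probe sets did. An unadjusted p under 0.05 was found for 1 of the 50, against 4.64% of all probe sets. VCF2, the paralogue of VCF1, had no such probe set and was not analysed here. The other UBX and SEP domain cofactors were higher for 3 and lower for 4 of 7, with a median difference of −0.05. Without pcFLAG-hSTYK1 replicate 2 the list turned to 4 higher and 3 lower, with a median of 0.08, and without pcFLAG-hSTYK1 replicate 1 it was 2 and 5, with −0.10. UBXN2A, a relative of NSFL1C, differed by 0.08, UBXN6 by −0.12 and UBXN10, a ciliary cofactor near the floor, by 0.22.

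The other VCP-binding adaptors and enzymes were higher for 9 and lower for 6 of 15 measured, with a median of 0.06. VCPIP1, a deubiquitinase of the Golgi reassembly pathway, read 4.04 and 3.65 in the pcFLAG-hSTYK1 arrays, against 3.50 and 3.56 in the pcFLAG arrays. PLAA, a ubiquitin-binding adaptor of VCP, read 5.07 and 4.97 in the pcFLAG-hSTYK1 arrays, against 4.81 and 4.79 in the pcFLAG arrays. Neither gene's groups overlapped, as at 32.8% of all probe sets, and neither passed (differences 0.32 and 0.22, limma, adjusted p = 0.979 for each). ZFAND1, which brings VCP to stress granules, differed by 0.21 with overlapping groups.

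Ribosome quality control, in which VCP extracts stalled nascent chains after LTN1 has ubiquitinated them, was higher for 6 of 6 genes measured. The median was 0.17, against 0.0056 over all probe sets, and for 5 of the 6 the groups did not overlap on the higher side, where 17.4% of all probe sets do so. LTN1, the ubiquitin ligase of the pathway, read 3.21 and 3.24 in the pcFLAG-hSTYK1 arrays, against 2.94 and 2.79 in the pcFLAG arrays. It differed by 0.36 (standard error 0.10) and did not pass (limma, adjusted p = 0.979). ZNF598, a ligase that senses collided ribosomes, and ASCC3, a helicase that splits them, differed by 0.18 each. Without pcFLAG replicate 1, which lay lowest with a mean deviation of −0.15, and without pcFLAG-hSTYK1 replicate 1, 5 of 6 were higher.

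For most ERAD partners, pcFLAG-hSTYK1 replicate 1 and pcFLAG replicate 2 were the 2 highest arrays. This held for 9 of the 11 genes measured, the exceptions being DERL3 and AUP1. The order was read off these values, and its share over all probe sets was not counted. All 11 had overlapping groups, which that order entails for the 9, while 32.8% of all probe sets do not overlap. DERL3 lay above the floor on 1 array only, so its array order carries little weight. By sign 6 were higher and 5 lower, or 5 and 6 after quantile normalization. Without pcFLAG-hSTYK1 replicate 1 the split was 2 higher and 9 lower, with a median of −0.16, and without pcFLAG-hSTYK1 replicate 2 it was 9 higher and 2 lower, with a median of 0.12. HERPUD1, an ER membrane scaffold of ERAD induced by stress, read 7.16 and 6.48 in the pcFLAG-hSTYK1 arrays, against 6.36 and 6.94 in the pcFLAG arrays. SEL1L, the adaptor of the ERAD ligase complex, read 6.93 and 6.02 in the pcFLAG-hSTYK1 arrays, against 6.04 and 6.31 in the pcFLAG arrays. SELENOS, a membrane anchor for VCP that lay under the floor in pcFLAG replicate 1, had the array order of HERPUD1 at a difference of 0.24. The mean deviation of the list was 0.20 and −0.14 in pcFLAG-hSTYK1 replicates 1 and 2, against −0.16 and 0.10 in pcFLAG replicates 1 and 2.

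Of the 5 reporters of reticulum stress measured, 3 had the same 2 arrays on top: HSPA5, DDIT3 and DNAJB9. Here too the share of this order over all probe sets was not counted. ATF4 was highest in pcFLAG replicate 1, and the largest deviation of XBP1 from its mean was 0.04, in pcFLAG-hSTYK1 replicate 1. The mean deviations of the list were 0.30 and −0.25 in the pcFLAG-hSTYK1 arrays, against −0.19 and 0.14 in the pcFLAG arrays. The chaperone gene HSPA5 read 9.80 and 9.19 in the pcFLAG-hSTYK1 arrays, against 9.09 and 9.48 in the pcFLAG arrays. DNAJB9 and DDIT3 differed by 0.24 and −0.16 with overlapping groups. Without pcFLAG-hSTYK1 replicate 1 all 5 were lower, and without pcFLAG-hSTYK1 replicate 2 all 5 were higher. VCP and FAF1 had their highest value in pcFLAG-hSTYK1 replicate 1, then in pcFLAG replicate 2, and their lowest in pcFLAG replicate 1. The other members had different orders. The part of reticulum stress in the members' values was not tested.

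**Figure D4:**
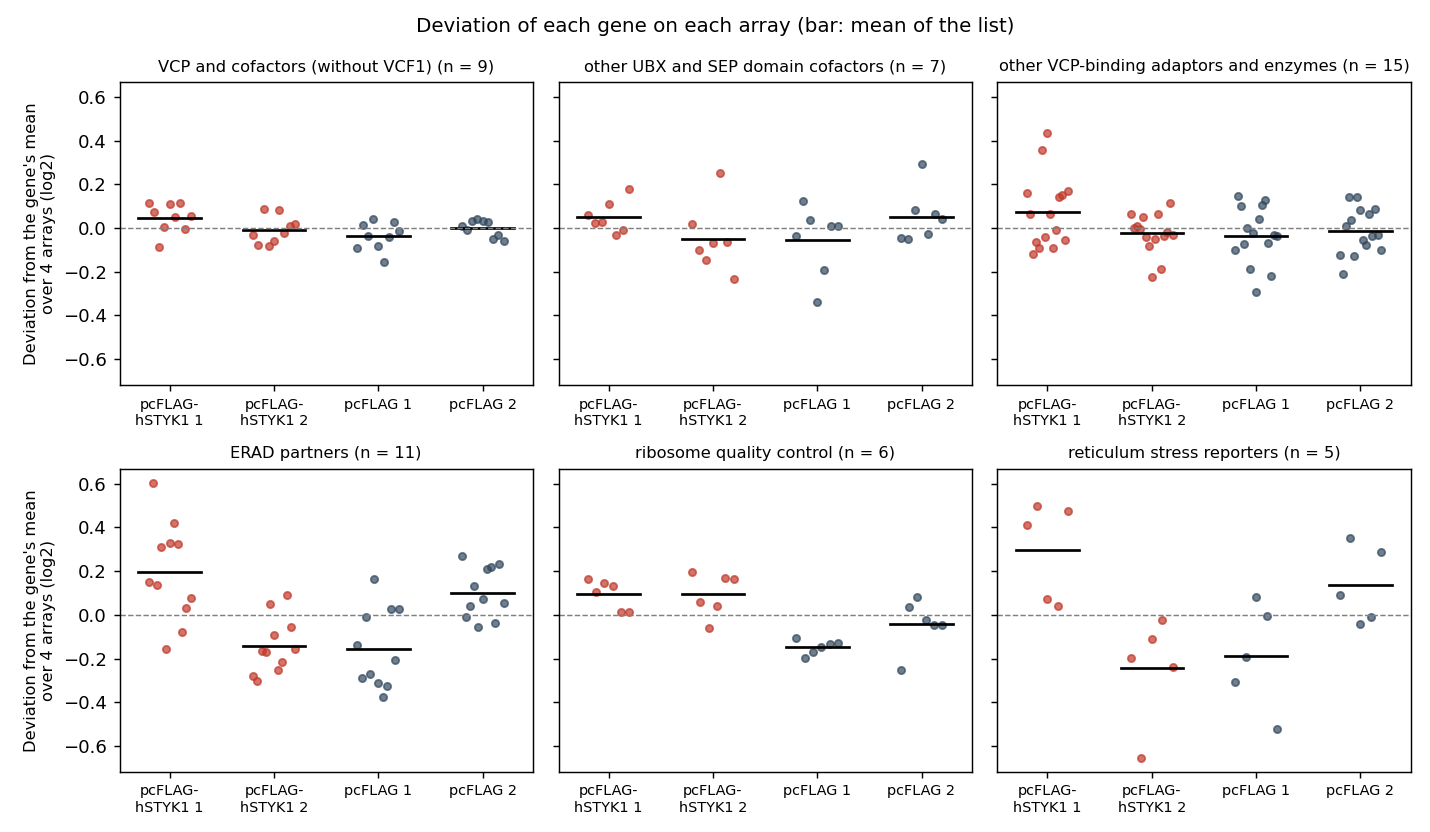
Deviation of each gene from its own mean over the 4 arrays, by array, for VCP with 8 cofactors and 5 lists of related genes; points are genes, the bar is the list mean, and pcFLAG-hSTYK1 arrays stand left of pcFLAG arrays. The list means of ERAD partners and stress reporters are above 0 on pcFLAG-hSTYK1 replicate 1 and pcFLAG replicate 2. Single genes such as AUP1 and DERL3, the latter near the floor, go the other way. The 9 members stay within 0.16 of their means.

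The AAA ATPases related to VCP were higher for 2 and lower for 3 of 5 measured, with a median of −0.16. Without pcFLAG-hSTYK1 replicate 2 they were 1 and 4, with a median of −0.06. With all 4 arrays the groups did not overlap on the lower side for 3 of the 5, where 15.4% of all probe sets do so. On the higher side this was 1 of the 5, against 17.4%. NSF, the ATPase that recycles SNARE complexes, read 4.91 and 4.81 in the pcFLAG-hSTYK1 arrays, against 5.04 and 5.02 in the pcFLAG arrays. AFG2B differed by −0.23 and PEX6, a peroxisomal ATPase, by 0.16, and none of the 3 passed (limma, adjusted p of 0.979 to 0.984). Of the ubiquitin genes UBB alone had a probe set with exactly 1 symbol. It differed by 0.23 without overlap, as are 32.8% of all probe sets. The difference of UBB was 0.37 without pcFLAG replicate 1 and 0.09 without pcFLAG replicate 2.

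The named genes whose deviations over the 4 arrays lay nearest to those of VCF1 were SNHG1, SNORD75, TMC4, ZNF513 and CCDC14. Nearness was the Euclidean distance of the 4 log2 deviations, and it ran from 0.16 for SNHG1 to 0.35 for CCDC14. SNHG1, a noncoding host gene of small nucleolar RNAs, read 3.64 and 3.89 in the pcFLAG-hSTYK1 arrays, against 2.96 and 3.14 in the pcFLAG arrays. With 4 arrays such likeness describes the values only, since these genes were chosen for it.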

How the data were processed

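The table deposited by the authors holds processed values in 1 column per array, read here as log2 signals; the base was inferred from the range of the values. Per the submitters' processing notes the Transcriptome Analysis Console was used. For its version, normalization and annotation, nothing is given in the sources used here. No detection calls or scan dates came with the table, so neither background nor a batch could be read from it. Array medians were 0.615 to 0.629, and no normalization was added. Arrays correlated at 0.985 to 0.987, and pairs of arrays shared 170 to 242 equal values, so none was a copy of another. Precision is limited by the number of arrays; differences had a median standard error of 0.11.

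Of 53617 probe sets, 23871 had 1 gene symbol, 1842 had several and 27904 had none here. Symbols were updated by Entrez ID through RefSeq (22569 matched, 90 changed), and where a gene had several probe sets the one highest on average stood for it. Groups were compared with limma 3.58.1 in R 4.3.3 (lmFit and eBayes, two-sided), p-values adjusted across all probe sets by Benjamini-Hochberg and called under 0.05; the fit had 2 residual degrees of freedom and a prior of 2.71. It was also run on simulated arrays whose added differences all exceeded that of VCF1. That run does not bear on differences of the members' size. An exact permutation test of 2 against 2 arrays cannot go below p = 0.333.

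The members and lists were chosen with earlier results of these data known. The naming rule took all members, VCF2, up to 3 genes per list by largest difference (and any past the threshold), and the 5 genes nearest in pattern to VCF1. Alternatives were leaving out each array, the replicate number as a block, quantile normalization, centring on the median, a filter at the floor, an intensity trend and 1 probe set per gene. Same-numbered arrays deviated with a correlation of −0.044, and nothing in the labels pairs them.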

Additional observations from a re-analysis of the deposited data

How the results depend on the processing

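All alternatives were planned. VCF1 stayed higher in all 10, at 0.70 to 1.01 with 1 array left out and 0.81 to 0.85 otherwise. It was chosen for its rise and its groups lay 0.64 apart, so no single omission could turn its sign. The median of the other 9 members stayed above 0, at 0.0103 to 0.0942 with 1 array left out. None of the 9, and none of the 50 listed genes, passed under any alternative that kept all 4 arrays. The threshold was hard to reach: MCTS2, at a difference of 1.31 in the main fit, did not pass (limma, adjusted p = 0.497). Not passing therefore says little about how stable the members' differences are. Differences near 0 changed sign: NPLOC4 to −0.00134 after centring on the median and −0.0276 after quantile normalization, and UBXN4 to −0.0259 after quantile normalization. Leaving out 1 array gave −0.0785 to 0.072 for UFD1, −0.0842 to 0.0911 for NPLOC4, −0.0375 to 0.132 for FAF1 and −0.0254 to 0.0351 for UBXN4; it gave 0.009 to 0.15 for VCP, 0.04 to 0.22 for FAF2, 0.02 to 0.16 for UBXN1, 0.05 to 0.10 for UBXN7 and −0.12 to −0.04 for NSFL1C, which kept their sign. STYK1 kept its direction (6.96 to 7.42 with 1 array left out), but its call ended with each array left out, where 1 residual degree of freedom remains and a lone array is taken to vary as the other group does, with adjusted p of 0.347 to 0.724 and 0 probe sets passing (lowest 0, highest 0). With the replicate block its difference was 7.19 (adjusted p = 0.0637), 0 probe sets passed, and no other call changed. The cause was not tested. The arrays carry no background values, so how far dim signals such as that of VCF1 are compressed cannot be read from them.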
